A study of Coturnix japonica with 144 samples.

Results

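The nucleus taeniae (Tn) is a small telencephalic region of birds, regarded as the counterpart of the mammalian medial amygdala and known for its part in social and sexual behaviour. Its gene expression was compared between male and female Japanese quail (*Coturnix japonica*) over all genes that passed a filter on low counts. The comparison used 47 Tn libraries, 1 per bird, of the 144 libraries in the series, which also hold 2 other regions of the same birds, the hypothalamus and the BnST (bed nucleus of stria terminalis). There were 20 males, 12 from the sensitization treatment and 8 controls, and 27 females, 11 from the sensitization treatment and 16 controls. Sensitized birds had been shut in a box overnight with chicks and control birds had been shut in without them, and every bird then met unfamiliar chicks before its brain was taken. All were adults held on short days, on which both sexes are reproductively inactive, and each region was punched from frozen sections. One further bird, bird 17, is labelled as a sensitized male but had female-like levels of male-biased genes, and its library was kept out of the comparison for that reason.

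Male birds carry a pair of Z chromosomes and females 1 Z and 1 W. Birds lack a chromosome-wide mechanism that evens out the dose of Z-linked genes between the sexes, and the balance is struck gene by gene. Genes found on the W alone can be expressed in females only. The count table lists genes by Ensembl identifier without names or positions, so which of the DEGs lie on the Z or the W was not analysed here, nor were the marker genes of brain regions and cell types. Identifiers stand in for names except for 21 genes that the study's supplement names or describes. RefSeq's annotation of assembly Coturnix japonica 2.1 places 16 of these 21 on a chromosome, 0 of them on the Z or the W.

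The reads assigned to genes numbered 9789285 to 15511934 per library in males (median 12707231) and 10116600 to 17288344 in females (median 13370712). The mean log2 total of males minus that of females was -0.04 (permutation test with 100000 resamples, two-sided, p = 0.477). Levels are given as CPM, the counts of a gene scaled to its library's effective total. Of the 48 Tn libraries including that of bird 17, 43 were most similar to another Tn library. The other 5 were most similar to another region of the same bird, the BnST for males 12, 14 and 18 and female 5 and the hypothalamus for female 26. Bird 14 also stood apart on the second principal component, at 48.1 against 28.7 for the next library, and the counts of DEGs, the test against each region and the genes whose call changed are given with and without the 5 libraries.

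The sex difference in the Tn was mostly one of genes higher in males. Of 14624 genes tested, 500 were up-regulated in males (3.42% of the genes tested) and 122 in females (0.834%) at an adjusted p under 0.05 in edgeR's quasi-likelihood test with treatment as a covariate. Males were thus higher in 80.4% of the DEGs. At an unadjusted p under 0.05 there were 1560 genes (10.7%). The median log2 fold change, male over female, was 0.61 over the genes higher in males and -0.20 over those higher in females, against -0.01 over all genes tested. In tissue punches, fewer cells of a type and less RNA per cell cannot be told apart. Without the 5 libraries most similar to another region, 485 genes were higher in males, 477 of them among the 500, whereas 75 were higher in females, 72 of them among the 122. With bird 17 kept as a male, 496 genes were higher in males and 100 in females.

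**Figure D1:**
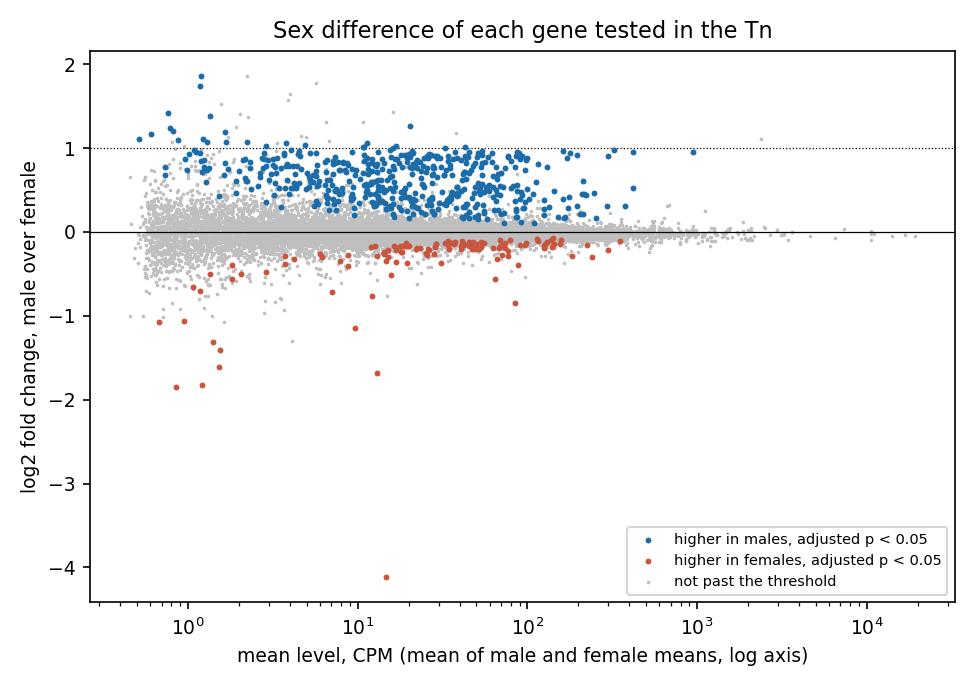
Log2 fold change of each of the 14624 genes, male over female, against its mean level in CPM (log axis), with 47 birds. The genes higher in males lie mostly below the dotted line at 1, and most genes higher in females lie close to 0.

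The genes higher in males seldom exceeded a log2 fold change of 1. Their log2 fold changes ran from 0.10 to 1.86, with the middle 80% of them between 0.29 and 0.94. There were 34 genes up to 0.25, 148 from there to 0.5, 136 up to 0.75 and 159 up to 1, so that 95.4% were at or under 1, which is a 2-fold difference. Only 23 genes exceeded 1 and only 5 exceeded 1.25, of which 4 had a male mean under 3 CPM. The genes higher in females were mostly smaller differences with a long tail, the middle 80% lying between -0.72 and -0.12. Of the 122, 76 were within 0.25 of 0, 20 went past -0.5 and 10 went past -1, down to -4.12.

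**Figure D2:**
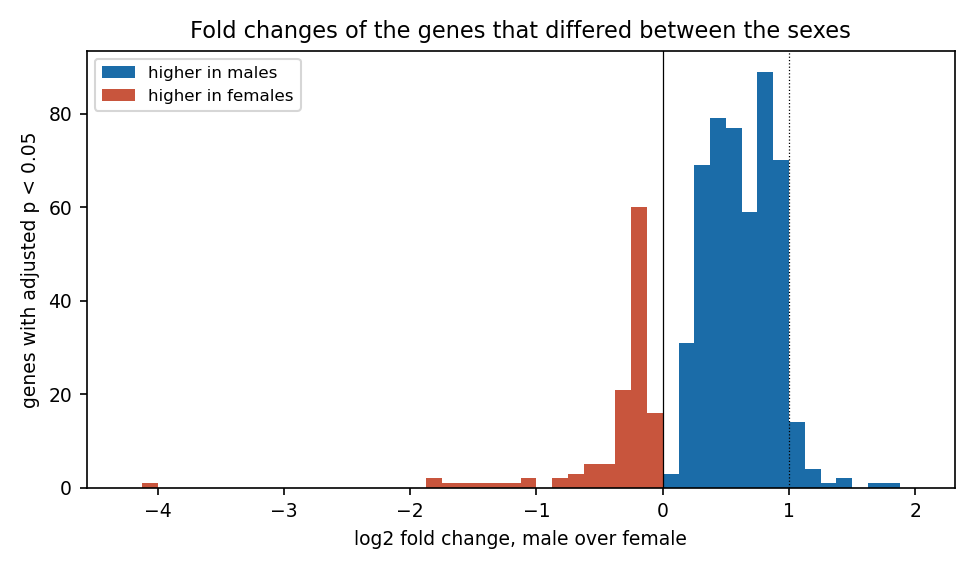
Genes with an adjusted p under 0.05, counted by log2 fold change, male over female, in steps of 0.125. The 500 genes higher in males pile up below the dotted line at 1, and a single gene higher in females stands at -4.12.

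The 2 directions also differed in how they spread over expression levels. In 4 equal groups of 3656 genes ordered by mean level, the genes higher in males numbered 112, 168, 131 and 89 (lowest to highest level), and the genes higher in females numbered 19, 32, 35 and 36. The median log2 fold change of the genes higher in males was 0.76 in the lowest group and 0.49 in the highest. For the genes higher in females it was -0.56 in the lowest group and -0.16 in the highest. Low genes need a larger difference to pass the test, so these counts and medians are not independent of the threshold.

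Many genes separated the sexes bird by bird. Every male was above every female in 145 genes (0.992% of the genes tested), all of them among the 500, and their log2 fold changes ran from 0.36 to 1.06 with a median of 0.82. Every female was above every male in 3 genes (0.0205% of the genes tested). These are 29% of the genes higher in males and 2.46% of those higher in females. No gene had 0 counts in all birds of one sex and counts in every bird of the other, and 917 genes of the table had 0 counts in all 47 libraries. The test favours genes with little spread between birds of a sex, so the spread of the DEGs is a description. The median SD of log2 CPM was 0.19 in males and 0.21 in females over the 500 genes higher in males, and 0.24 in males and 0.23 in females over all genes tested.

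The gene with the smallest p of all, ENSCJPG00005001239, was higher in males with no overlap. Its level ran from 217.6 to 257.3 CPM in males (median 231.2) and from 109.0 to 135.1 CPM in females (median 121.0). The lowest male was thus far above the highest female, in both treatments. The mean was 233.7 ± 10.9 CPM in males and 121.6 ± 6.27 CPM in females (SD, n = 20 and 27), a log2 fold change of 0.94 with a standard error of 0.02 (edgeR's quasi-likelihood test, adjusted p = 1.86e-34). Within sensitized birds the log2 fold change was 0.92 and within controls 0.95, and the hypothalamus gave 0.94 and the BnST 0.90.

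The largest fold in females belonged to ENSCJPG00005012300, which was low but not absent in males. Its level ran from 0.48 to 6.11 CPM in males (median 0.95) and from 22.8 to 38.8 CPM in females (median 27.3). Each male had between 5 and 75 counts of it and each female between 253 and 577. The log2 fold change was -4.12 with a standard error of 0.20 (edgeR's quasi-likelihood test, adjusted p = 2.18e-22), and it was -4.16 in both the hypothalamus and the BnST. Males varied far more among themselves than females on a relative scale. The mean was 1.58 ± 1.54 CPM in males and 27.7 ± 4.06 CPM in females (SD, n = 20 and 27).

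The males with the most of this transcript were the same birds in every region. Males 12, 21, 29 and 46 held the 4 highest male values in the Tn, from 2.68 to 6.11 CPM, with the next male at 1.82 CPM. The same 4 birds held the 4 highest male values in the hypothalamus, from 3.47 to 8.91 CPM with the next at 1.97 CPM. They did so again in the BnST, from 3.26 to 8.22 CPM with the next at 2.27 CPM. This observation was made after the values were seen. Of these birds 12, 21 and 29 were controls and 46 was sensitized, and the sex difference of the gene was -4.64 within sensitized birds and -3.62 within controls. The test of that difference gave -1.02 (edgeR's quasi-likelihood test, unadjusted p = 0.00822, adjusted p = 0.9999), so it did not pass over all genes.

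ENSCJPG00005010285 was the gene with the next smallest p among those higher in females, and its sexes did not overlap either. Levels ran from 48.6 to 71.7 CPM in males (median 57.5) and from 88.8 to 126.7 CPM in females (median 106.8). The log2 fold change was -0.84 with a standard error of 0.05 (edgeR's quasi-likelihood test, adjusted p = 6.44e-20). In the other regions it was -0.81 (hypothalamus) and -0.67 (BnST).

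The largest fold in males among genes with a mean of at least 1 CPM, that of ENSCJPG00005012816, was of another kind, because it rested on part of the males. Its level ran from 0 to 7.41 CPM in males (median 0.98) and from 0 to 1.76 CPM in females (median 0.35). Only 8 of the 20 males were above the highest female, and 7 of those 8 carried bird numbers of 20 or less. The log2 fold change was 1.86 with a standard error of 0.45 (edgeR's quasi-likelihood test, adjusted p = 0.00393). It was 2.66 in birds numbered 1 to 20 (adjusted p = 0.0689) and 0.43 in birds numbered 21 to 50 (adjusted p = 0.965). Among the 5 libraries most similar to another region, males 12, 14 and 18 had 7.01, 1.90 and 2.58 CPM and females 5 and 26 had 0.58 and 1.62 CPM. Without these 5 libraries the log2 fold change was 1.495 and no longer passed (adjusted p = 0.103), and it did not pass with limma-voom either (1.40, adjusted p = 0.243). With the number series as a covariate it was 1.36 and did not pass (edgeR's quasi-likelihood test, adjusted p = 0.189). The gene was higher in the other regions than in the Tn, with 11.8 ± 4.50 CPM in males and 9.21 ± 3.63 CPM in females in the BnST (SD, n = 20 and 27). Whether tissue outside the Tn contributed to these values was not tested.

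**Figure D3:**
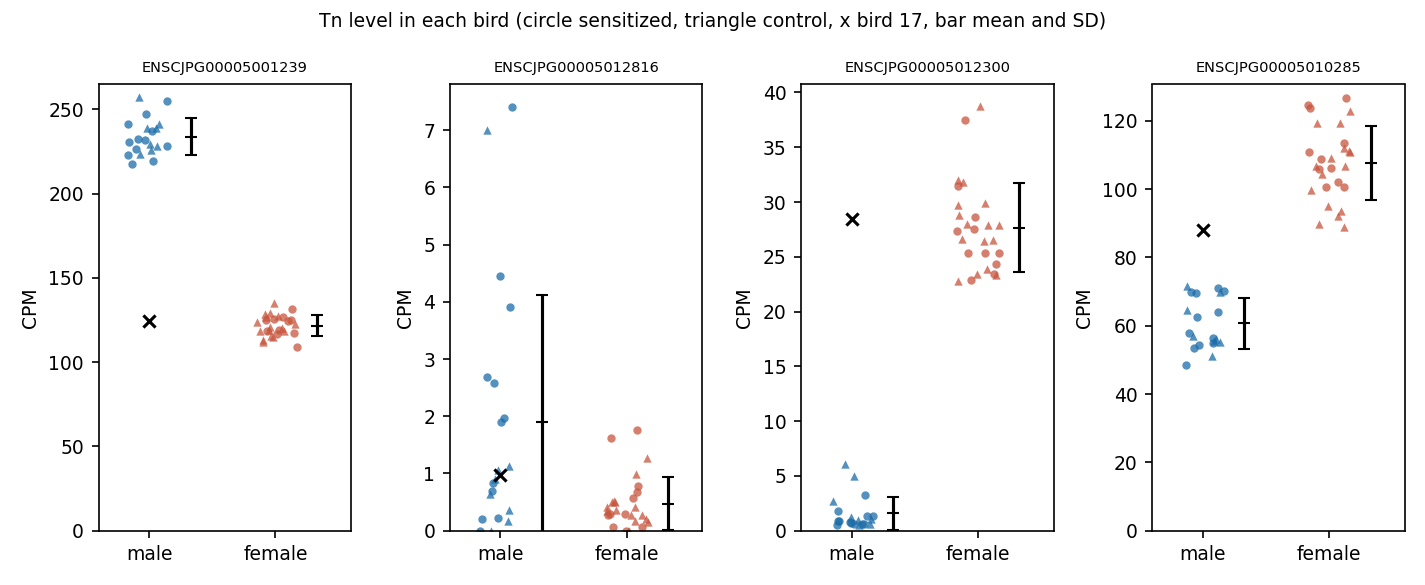
Level in CPM of the 4 genes described above in the Tn of each bird, males left and females right, with circles for sensitized and triangles for control birds, a cross for bird 17 and bars for the mean and SD of each sex. The sexes do not overlap in 3 of the genes, whereas ENSCJPG00005012816 is spread from 0 to 7.41 CPM among males.

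The DEGs described each bird almost alike within a sex. Over the 500 genes higher in males, the mean log2 CPM of a bird lay between 4.33 and 4.44 in males and between 3.73 and 3.81 in females. Over the 122 genes higher in females it lay between 4.35 and 4.56 in males and between 4.70 and 4.90 in females. The 500 genes took 2.31 to 2.43% of a male's counts on genes tested and 1.54 to 1.67% of a female's. For the 122 genes the shares were 0.567 to 0.5997% in males and 0.649 to 0.698% in females. These birds chose the genes, so the gaps are a description and not a test.

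Bird 17 was not among the birds that chose these genes in the Tn. It had been set aside for its low male-biased genes, so its values over the genes higher in males follow from that and are not a test. Its mean over the genes higher in males was 3.84 log2 CPM, just above the highest female, and over the genes higher in females it was 4.69, just below the lowest female. It was nearer to the female than to the male mean in 415 of the 500 genes higher in males and in 90 of the 122 higher in females, against 52.1% of all genes tested. It fell below every male in all 145 genes in which every male exceeded every female. ENSCJPG00005001239 stood at 124.1 CPM and ENSCJPG00005012300 at 28.4 CPM in this bird, both inside the female range. ENSCJPG00005010285 stood at 88.0 CPM, just below the lowest female at 88.8 CPM. Outside the Tn, its mean over the same 500 genes was 3.96 log2 CPM in the hypothalamus (4.40 to 4.54 in males and 3.78 to 3.95 in females). In the BnST it was 3.81 (4.06 to 4.48 in males and 3.71 to 3.82 in females).

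**Figure D4:**
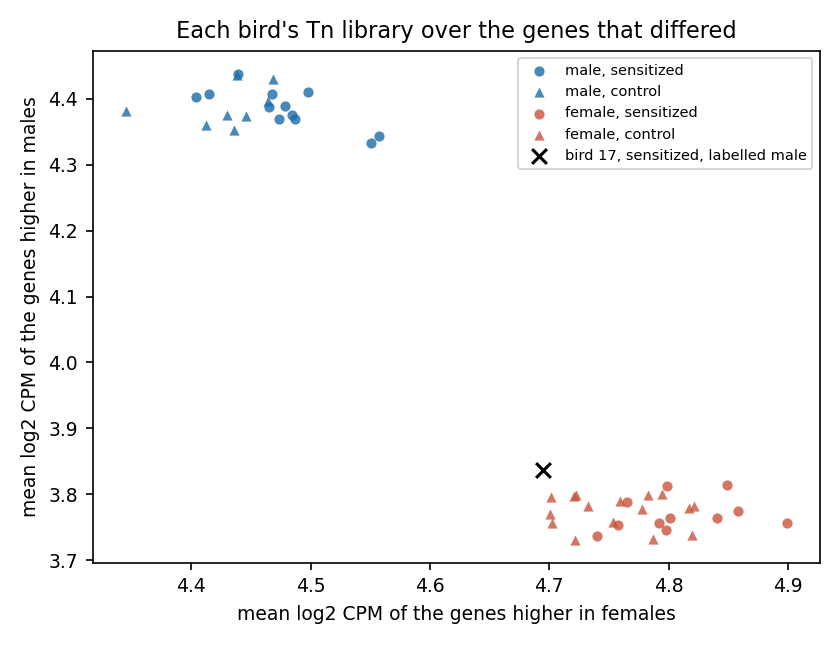
Mean log2 CPM of each bird's Tn library over the 500 genes higher in males (vertical axis) and the 122 genes higher in females (horizontal axis), with circles for sensitized and triangles for control birds. The 20 males and 27 females form separate clouds, and bird 17, labelled male, lies beside the females at 3.84 and 4.69.

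The treatments give 2 sets of birds with no bird in common. Within sensitized birds 380 genes were higher in males (2.68% of the genes tested there) and 46 in females (0.324%). Within controls 399 genes were higher in males (2.77%) and 42 in females (0.291%). Of the 380, 338 were also called higher in males in controls and all 380 had the same direction there, with a median log2 fold change of 0.66 in sensitized birds and 0.68 in controls. Of the 46 genes higher in females in sensitized birds, 14 were called in controls and 41 had the same direction, with a median of -0.32 in sensitized birds and -0.17 in controls. In reverse, of the 399, 338 were called in sensitized birds and 395 had the same direction, with a median of 0.68 in controls and 0.63 in sensitized birds. Of the 42, 14 were called and 39 had the same direction, with a median of -0.28 in controls and -0.18 in sensitized birds. Each list was chosen in 1 set of birds, so a smaller median in the other set can follow from that choice alone. No gene was called in opposite directions. The test of whether the sex difference differed between sensitized and control birds called 0 of 14880 genes in edgeR's quasi-likelihood test (0%), with 453 genes (3.04%) at an unadjusted p under 0.05. DESeq2 and limma-voom also called 0, with 471 and 477 genes at an unadjusted p under 0.05.

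Birds numbered 1 to 20 (11 males and 7 females) and 21 to 50 (9 males and 20 females) also share no bird. The labels give these numbers without saying what they mark, and they show no break after bird 20. The 2 groups are called series here only for that cut. In the first series 355 genes were higher in males (2.42%) and 34 in females (0.232%), and in the second 407 were higher in males (2.78%) and 48 in females (0.328%). Of the 355, 354 were tested in the second series, where 311 were called and 345 had the same direction. Of the 34 higher in females, 10 were called and 25 had the same direction there. In reverse, of the 407, 311 were called in the first series and 404 had the same direction. Of the 48, 10 were called and 37 had the same direction. Over all genes tested, 49.4% had a positive log2 fold change in the first series and 46.1% in the second. As between treatments, no gene was called in opposite directions. The sexes are split unequally over the 2 series. With the number series as a covariate in all 47 birds, 488 genes were higher in males, 478 of them among the 500. In that fit 91 were higher in females, 81 of them among the 122.

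The sex difference was then set beside that of the other regions in the same 47 birds. In the hypothalamus 547 of 14813 genes were higher in males (3.69%) and 215 in females (1.45%), and in the BnST 478 of 14741 were higher in males (3.24%) and 76 in females (0.516%). Of the genes higher in males, the Tn shared 467 with the hypothalamus, 93.4% of the Tn list and 85.4% of the hypothalamic list, and 435 with the BnST, 87% of the Tn list and 91.0% of that of the BnST. Of the genes higher in females it shared 69 with the hypothalamus, 56.6% and 32.1% of these lists, and 45 with the BnST, 36.9% and 59.2%. In all 3 regions 427 genes were higher in males and 38 in females. No gene called in the Tn was called in the opposite direction in another region. The median log2 fold change of the Tn genes higher in males was 0.61 in the Tn, 0.64 in the hypothalamus and 0.63 in the BnST. For those higher in females it was -0.20, -0.16 and -0.13 in the same order. Both lists were chosen by their values in the Tn, so a smaller median elsewhere can follow from that choice alone. These medians are a description and not a test between regions.

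Of the genes called in the Tn alone, 1 had a sex difference that the test set apart from that of another region. In the Tn alone, 25 genes were called higher in males and 46 in females, of which 19 and 39 had the same direction in both other regions. A gene not tested in another region counts here as not called there and as without the same direction. Of the 500 genes higher in males, 498 were tested in the hypothalamus and 497 in the BnST. All 122 genes higher in females were tested in both. The share of all genes with the same direction in both regions was not analysed, so these counts are a description. The sex difference of the Tn was tested against that of the hypothalamus over 15387 genes, and edgeR's quasi-likelihood test called 1 (0.0065%), with 293 genes (1.9%) at an unadjusted p under 0.05. Against the BnST it called 0 (0%), with 309 genes (2.01%) at an unadjusted p under 0.05, and limma-voom likewise called 0 there, with 342. The gene called was ENSCJPG00005012816, described above, with a difference of 2.03 log2 units and a standard error of 0.40 (adjusted p = 0.0188). In the hypothalamus its levels were 3.67 ± 0.84 CPM in males and 4.10 ± 1.91 CPM in females (SD, n = 20 and 27). With the bird as a block, which uses the fact that the libraries come from the same animals, the difference was 1.798 (adjusted p = 0.0751) and 0 genes were called against either region. That fit had 628 genes at an unadjusted p under 0.05 against the hypothalamus and 635 against the BnST. Without the 5 birds whose Tn library was most similar to another region it was 1.67 (adjusted p = 0.9999), and a single other gene was called against the BnST.

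None of the genes that the study's supplement names or describes passed the test of sex in the Tn. The study drew them from the effects of treatment or brooding in these same birds, so they are not a list independent of the samples, and none of the 16 with a known chromosome is on the Z or the W. Of the 21, 20 passed the filter, 0 were called (background 4.25% in either direction), 5 had an unadjusted p under 0.05 (10.7% of all genes tested) and 17 had a positive log2 fold change (44.9% of all genes tested). The largest absolute log2 fold change was 0.35, a gene higher in males. Over all genes tested, the lower and upper quartiles of the log2 fold change were -0.06 and 0.05. The value of 0.35 is the largest of a list, so setting it beside these quartiles is a description and not a test. The exception to the filter was *UCN3*, urocortin 3, a peptide of the corticotropin-releasing factor family, which had 0.07 to 3.18 CPM in males and 0 to 20.1 CPM in females, most birds being near 0 (medians 0.24 and 0.20 CPM).

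Among these are 12 genes grouped here as activity genes, switched on by cell activity or stress. Which cell types expressed them in these punches was not analysed. None of the 12 passed the test of sex in the Tn, where 4.25% of all genes tested did in either direction. With so few genes, 0 of 12 is not set apart from that share. Their median log2 fold change was 0.16, with 10 above 0, against -0.01 and 44.9% above 0 over all genes tested. Genes switched on by the same activity are not independent of each other, so these counts are a description and not a test. The median of the 12 was 0.09 without the 5 libraries most similar to another region. At an unadjusted p under 0.05 in edgeR's quasi-likelihood test there was then 1 gene rather than 4. Over all genes tested this held for 1288 of 14588 without the 5 libraries and for 10.7% with them. The median was 0.19 in birds numbered 1 to 20 and 0.04 in birds numbered 21 to 50. In these 10 and 8 of 12 were above 0, against 49.4% and 46.1% of all genes tested. In the hypothalamus the median was -0.01 with 5 of 12 above 0, and in the BnST it was 0.11 with 10 of 12.

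The transcription factors of the list came closest to the threshold with *FOSB*, a partner of JUN in the AP-1 complex. It ran from 5.76 to 20.8 CPM in males (median 12.8) and from 6.19 to 14.9 CPM in females (median 10.3), so the sexes overlapped over most of their range. The log2 fold change was 0.35 with a standard error of 0.12 (edgeR's quasi-likelihood test, adjusted p = 0.102). Without bird 49, a sensitized male left out as an alternative chosen after seeing the data, it was 0.40 and passed (adjusted p = 0.0286), and without the 5 libraries it was 0.25 (adjusted p = 0.576). *EGR1*, the zinc-finger factor widely used as a marker of neuronal activation in birds, had 198.2 to 595.6 CPM in males (median 306.3) and 201.2 to 393.1 CPM in females (median 272.1), with a log2 fold change of 0.23 (adjusted p = 0.361). *FOS*, the founding member of the family, had 69.7 to 218.2 CPM in males (median 100.2) and 62.6 to 132.6 CPM in females (median 92.5), a log2 fold change of 0.17 (adjusted p = 0.489). The highest value of each of these 3 genes belonged to a male, and in *FOS* only 1 male exceeded the highest female. That was bird 12, whose Tn library was most similar to its own BnST library, and *FOS* averaged 178.9 CPM in males in the BnST. Whether tissue of the BnST contributed was not tested.

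The other factors had smaller log2 fold changes. The nuclear receptor *NR4A3* had a log2 fold change of 0.13, *EGR4* 0.14, *JUN* 0.08, *KLF2* -0.02 and *NPAS4*, which is induced by calcium entry into neurons, -0.05 (adjusted p from 0.586 to 0.984). Without the 5 libraries *NR4A3* was at 0.08, *EGR4* at 0.05 and *NPAS4* at -0.17. *KLF2* was the 1 activity gene called in another region, with 33.8 ± 7.51 CPM in males and 44.3 ± 10.5 CPM in females in the hypothalamus (SD, n = 20 and 27; log2 fold change -0.38, adjusted p = 0.0085). Its sex difference in the Tn minus that in the hypothalamus was 0.36 with a standard error of 0.13 (edgeR's quasi-likelihood test, unadjusted p = 0.0057), which did not pass over all genes (adjusted p = 0.99999). That fit did not pair the libraries by bird. With the bird as a block the difference was 0.38 with a standard error of 0.10 (edgeR's quasi-likelihood test, unadjusted p = 0.00046). It did not pass there either (adjusted p = 0.884).

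Of the activity genes that are not transcription factors, the antiproliferative *BTG2* had 142.7 ± 40.9 CPM in males and 125.8 ± 23.5 CPM in females (SD, n = 20 and 27), a log2 fold change of 0.21 with a standard error of 0.09. Its relative *TOB1* differed by 0.10 with a standard error of 0.04, the kinase *SIK1* by 0.17 and the small GTPase *RRAD* by 0.19 (0.10 without the 5 libraries), and 0 of these 4 passed (adjusted p from 0.237 to 0.615). The list has 3 long non-coding RNAs without a name, of which ENSCJPG00005007066 had the largest difference, 0.27 with a standard error of 0.10 (adjusted p = 0.207).

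**Figure D5:**
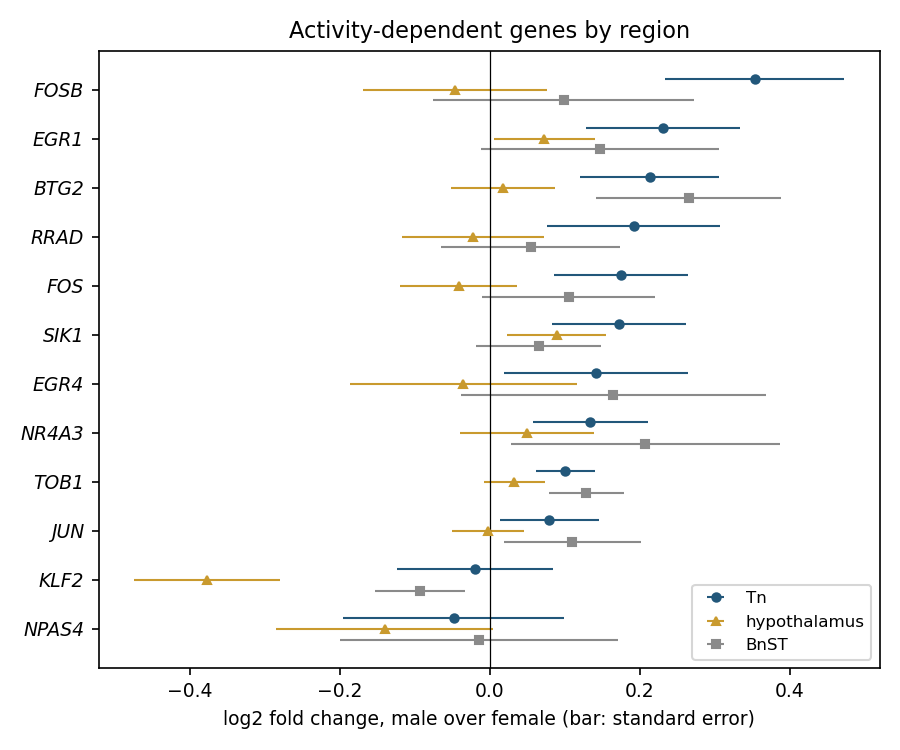
Log2 fold change, male over female, of the 12 activity-dependent genes in the Tn (circles), hypothalamus (triangles) and BnST (squares), with standard errors. In the Tn 10 of 12 lie above 0 and none passed the test, and *KLF2* in the hypothalamus, at -0.38, is the 1 value that passed.

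The other tested genes of the supplement did not pass the test of sex in the Tn either. *NTS*, which encodes the peptide neurotensin, had 51.3 to 118.4 CPM in males (median 84.9) and 46.3 to 120.9 CPM in females (median 80.5), a log2 fold change of 0.00 with a standard error of 0.09. *APMAP*, a plasma membrane protein first described in fat cells, had 101.4 ± 13.2 CPM in males and 96.5 ± 13.7 CPM in females (SD, n = 20 and 27), a log2 fold change of 0.02 with a standard error of 0.05. The phospholipase *PLCD1* differed by 0.05, the sialyltransferase *ST8SIA2*, which builds polysialic acid on neural cell adhesion molecules, by 0.13, and *SS18L2* by -0.17 (edgeR's quasi-likelihood test, adjusted p from 0.633 to 0.994 for these 5). The standard errors of the 5 ran from 0.05 to 0.11.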

How the data were processed

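Reads had been aligned by the authors with HISAT2 (genome Coturnix_japonica_2.0) and summed per gene by HTSeq, and the raw counts of 21561 genes were deposited as 1 column per library. Tool versions for these steps and the strand setting are not given in the sources used here. No pair among 1128 pairs of Tn libraries agreed within sampling noise.

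The analysis ran in R 4.3.3. It used edgeR 4.0.16 (TMM, filterByExpr at 10 counts and 15 in total, robust quasi-likelihood F test, Benjamini-Hochberg threshold 0.05), limma 3.58.1 and DESeq2 1.42.0. The edgeR test was also run on simulated counts with 200 genes changed. Their directions were drawn at random, whereas 80.4% of the DEGs here were higher in males. The simulation therefore does not test how that imbalance affects the scaling. CPM values are TMM-scaled, and log2 CPM used a prior count of 2. Standard errors are the absolute log2 fold change over the square root of F. Bird numbers pair regions by animal: residuals of the same bird correlated across genes with a median r of 0.43 between Tn and hypothalamus and 0.40 between Tn and BnST. Between different birds the median was -0.01 in both cases. The best match was the same bird for all 47 in the hypothalamus and for 41 of 47 in the BnST, where the lowest same-bird r was 0.09.

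Named were the genes with the smallest p and with the largest fold in each direction, printed here for 2 identifiers each, and the genes that the supplement names. The samples, lists and tests were chosen with earlier results of these data known. Alternatives covered the test, scaling, filter, covariates, birds and the bird as block.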

Additional observations from a re-analysis of the deposited data

Results flagged for a closer look

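*FOS* in the Tn of control males had 1 value far from the rest, that of bird 12 at 218.2 CPM against 84.8 to 128.2 CPM in the other 7, a gap of 0.563 of the group's range. The Tn library of bird 12 was most similar to its BnST library, and *FOS* averaged 178.9 CPM over the 20 males in the BnST. Whether tissue of the BnST contributed to the value of bird 12 was not tested. Of 24 genes checked in this group *FOS* was the only one so marked, where chance marks about 1 in 20.

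The sex difference of ENSCJPG00005012816 was 2.03 log2 units larger in the Tn than in the hypothalamus in the test of the difference itself, adjusted p = 0.0188 in edgeR's quasi-likelihood test. It was 1.798 with the bird as a fixed block, 1.49 with the bird as a random block in limma-voom and 1.67 without the 5 birds, and passed in none of these.

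The Tn library of bird 17, left out of the comparison of the sexes, had 28.4 CPM of ENSCJPG00005012300, against at most 6.11 CPM in the 20 males compared.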

How the results depend on the processing

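Genes higher in males in the Tn numbered between 355 and 529 under all 16 alternatives and 0 of the 622 genes were called in the opposite direction. Genes higher in females fell to 42 in controls, 46 in sensitized birds, 34 in birds 1 to 20, 48 in birds 21 to 50 and 75 without the 5 libraries most similar to another region. All 5 of these settings use fewer birds, the last of them 17 males and 25 females, and the cause was not tested. The other alternatives gave 89 or more. The share of DEGs higher in males was 80.4%, or 85.3% with TMM factors computed without the called genes. That setting gave 89 genes higher in females, all among the 122 of the main fit. Under it the median log2 fold change of all genes was 0.0032, against -0.0096 in the main fit. The sex by treatment interaction called 1 gene without the filter on low counts. Between Tn and hypothalamus, 0 genes were called with the bird as a fixed replicate block, as a random block, with limma-voom and without the 5 birds. Between Tn and BnST the block also gave 0, and 1 gene was called without the 5 birds. The cause was not tested.

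Of the named genes, 8 changed sign under some alternative without passing. On the log2 scale *NTS* was -0.0119 with the number series as a covariate, -0.0375 in sensitized birds, -0.0403 in birds 21 to 50, -0.0026 with bird 17 as a female and -0.0165 without bird 49. *KLF2* was 0.0058 with limma-voom, 0.0523 in controls and 0.1922 in birds 1 to 20. In birds 21 to 50 *NR4A3* was -0.0314, *SIK1* -0.0132 and *ST8SIA2* -0.0165. *APMAP* was -0.0037 in controls, *PLCD1* -0.0408 in sensitized birds and *JUN* -0.0249 in birds 1 to 20.

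A median over Z-linked genes and TMM factors without Z and W genes could not be run, because beyond the genes of the supplement identifiers could not be tied to chromosomes. Genes under the count filter, *UCN3* among them, were not tested, and at levels near 1 CPM differences rest on few counts.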
